A study of Mus musculus with 6 samples.

Results

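The genes described here are 41 genes of the ATF4 response and the amino acid pathways it serves, a set chosen by function, with earlier results of these data known: Atf4 and its known targets, the serine, folate and transsulfuration enzymes, and cytosolic tRNA synthetases. Of these, 37 had a probe set that names a single gene, out of 19936 genes measured in all, and the probe set with the highest mean stood for a gene with several. Aars, Ahcy, Mat2a and Pycr1 had none and were not analysed here. Expression was measured on Affymetrix arrays in mouse embryonic fibroblasts (MEFs) that form a stable Tet-off line, which carries a tetracycline-controlled transactivator. The HA-Fbxl10 group held 3 RNA samples of Tet-off MEFs transfected with a plasmid with the cDNA of HA-tagged Fbxl10 and a hygromycin resistance plasmid, as clones picked for HA-Fbxl10 expression. The control group held 3 RNA samples of Tet-off MEFs that had not been transfected. Fbxl10 is the older name of Kdm2b, a histone demethylase gene. The labels do not say how many clones were used, or whether the samples of a group came from separate cultures, so the p-values below reflect variation among these RNA samples alone, and that variation may be technical. An empty-vector group was not analysed here, and effects of transfection, drug selection and the choice of clones cannot be told apart from effects of Fbxl10.

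ATF4 is the transcription factor of the integrated stress response. Kinases that sense amino acid shortage (Gcn2, encoded by Eif2ak4), unfolded protein in the endoplasmic reticulum (Perk, encoded by Eif2ak3), haem shortage or double-stranded RNA phosphorylate the initiation factor eIF2 on its alpha subunit. General translation then falls while the Atf4 mRNA is translated more, and ATF4 protein turns on genes that make, import and charge amino acids. Much of the control of ATF4 is thus at translation, which arrays do not measure. In fibroblasts the pathway supplies serine, glycine, folate-bound carbon units, cysteine and asparagine during growth.

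Kdm2b had log2 levels of 9.77, 9.75 and 9.58 in HA-Fbxl10 cells, against 7.38, 7.45 and 7.28 in control cells, so the groups carry the labelled difference. Array medians over all genes were 5.29 to 5.36 in HA-Fbxl10 cells and 5.37 to 5.41 in control cells. Arrays of 1 group correlated at 0.994 to 0.996 and arrays of different groups at 0.990 to 0.992. Of 12 fibroblast markers 8 had a mean level above the median of all genes (5.36), including Col1a1, Col1a2 and Vim. Of the 12, limma called 3 lower, Col3a1 (-0.79), S100a4 (-0.64) and Pdgfra (-0.30, log2 fold changes). Thy1 and Dcn had means of 4.53 and 4.45 in HA-Fbxl10 cells and of 4.59 and 4.69 in control cells, below that median. Lum (2.80 and 2.83) and Fap (3.08 and 3.19, HA-Fbxl10 then control) lay below the lower quartile of genes on every array (3.69 to 3.78), where signal and background are not told apart. Among 24 markers of macrophages, epithelium, endothelium and muscle, 5 had a mean above the median, and limma called Cd14 (-0.45) lower and Flt1 (1.62) and Kdr (0.51, log2 fold changes) higher. The defining endothelial genes Pecam1 and Cdh5 had means of 3.65 and 3.78 in HA-Fbxl10 cells and of 3.76 and 3.88 in control cells, near the lower quartile. In bulk RNA fewer cells of a type and less RNA per cell cannot be told apart, and the part of these markers in the results was not tested.

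Most of the genes that changed were lower in HA-Fbxl10 cells. Of the 37 measured members, 16 fell, 3 rose and 18 did not pass an adjusted p of 0.05 in a limma fit over all genes. The fallers were 43.2% of the members. The background was 21.1% of all genes called, with 10.6% lower and 10.5% higher, and 17.8% lower and 19.2% higher among genes above the median level, where 36 of the 37 members lie. The risers were 8.11% of the members, no more than the background. The HA-Fbxl10 and control arrays were fully separated for 25 members that lay lower and 4 that lay higher in HA-Fbxl10 cells, which is 67.6% and 10.8%, beside 18.1% and 17.9% of all genes and 27.9% and 30% of those above the median level. The median log2 fold change of the members was -0.18, beside 0.004 for genes above the median level. Relative to the control mean, the median member stood at -0.18, -0.14 and -0.16 on the 3 HA-Fbxl10 arrays and at -0.03, -0.01 and 0.03 on the control arrays, in log2 units, so no single array set the difference.

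The falls were uneven between roles. They took in 5 of 6 transcription factors and regulators, 3 of 5 folate enzymes, 2 of 3 further stress targets, 1 of 3 serine synthesis enzymes, 1 of 2 measured transsulfuration enzymes, 2 of 6 other amino acid enzymes, 1 of 5 genes of eIF2 and translation control and 1 of 7 tRNA synthetases. The counts are small and the differences between roles were not tested.

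**Figure D1:**
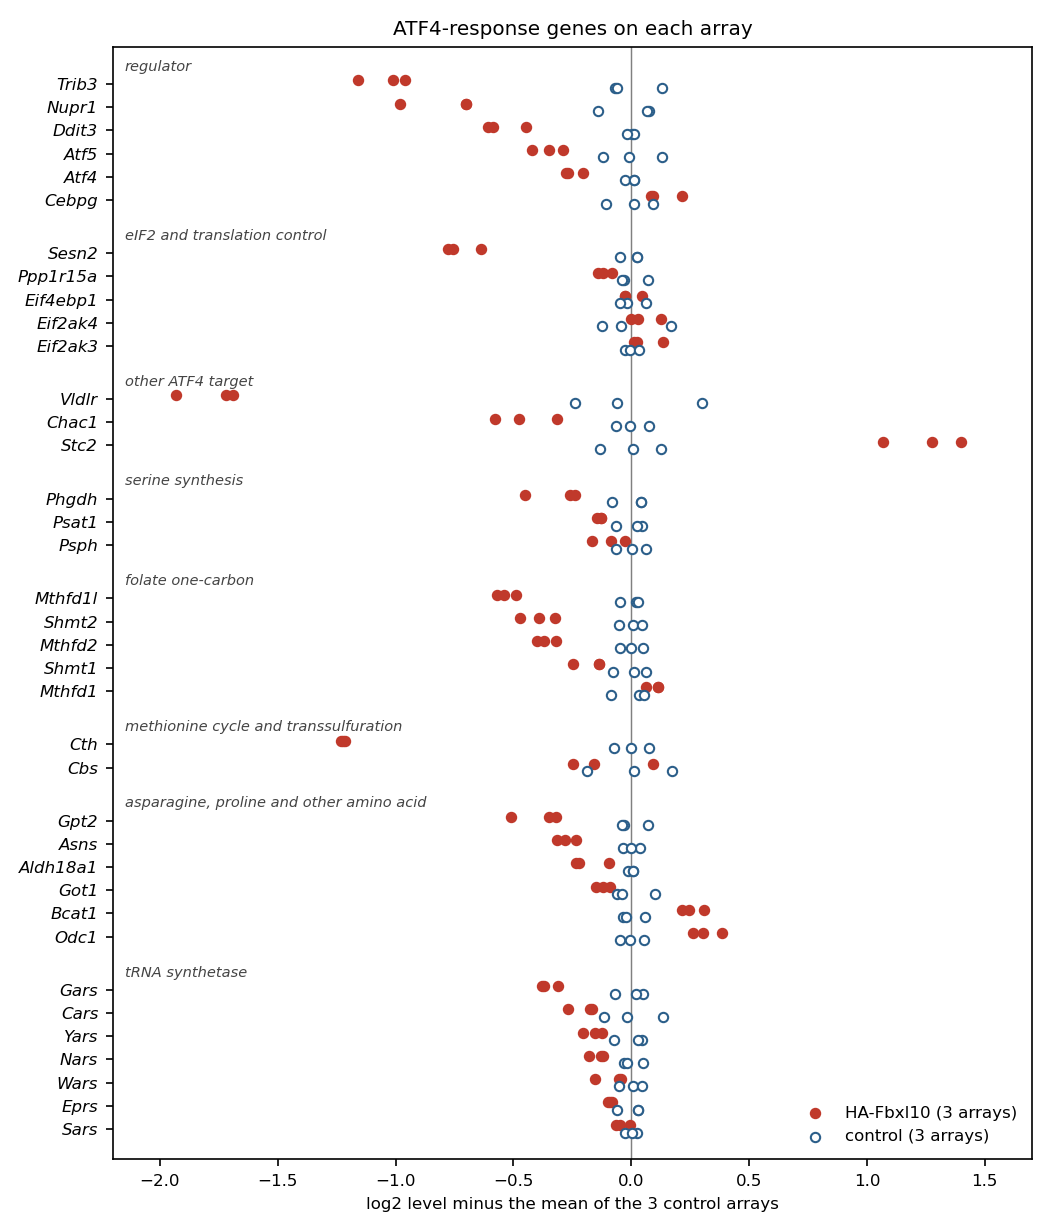
Log2 level of each of the 37 measured genes on each array, minus the mean of the 3 control arrays (x axis, log2 units), with genes grouped by role (y axis). Filled red points are the 3 HA-Fbxl10 arrays and open blue points the 3 control arrays. The red points of 25 genes lie wholly to the left of the blue ones, and those of Stc2, Odc1, Bcat1 and Mthfd1 wholly to the right.

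ATF4 binds with C/EBP partners to composite sites whose core reads TGATGNAA. The promoters of the members were searched for this motif. Only bases near the start were searched, so every match lies near a start. In RefSeq promoters of 300 bases (250 before to 50 after the start, GRCm38.p6), the 8 letters TGATGNAA were found on either strand in 1304 of 32851 promoters, 3.97%. They were in those of 10 of the 36 member genes with an entry, among them 6 of the 15 measured genes that fell and 2 of the 17 other measured genes. The percentages here and below are shares of promoters. The member counts are of genes with a match in any promoter listed for them, so the units differ. The other 2 were Aars and Pycr1, which were not analysed here. Entries were missing for Cars, Cth, Eif4ebp1, Nars and Wars. The members were chosen as known ATF4 genes, so the share of matches describes the choice as much as the data. The 8 measured genes with a match follow, each as 28 bases read 5′ to 3′ on the strand that spells the motif, which is in capitals.
Nupr1: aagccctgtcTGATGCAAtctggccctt
Trib3: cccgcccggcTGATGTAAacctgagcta
Chac1: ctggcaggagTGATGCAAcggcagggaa
Vldlr: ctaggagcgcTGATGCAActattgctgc
Asns: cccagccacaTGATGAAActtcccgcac
Gars: gcccggtgcaTGATGAAAtagcgcagcc
Got1: gaggcttgtaTGATGCAAccaatgcaat
Yars: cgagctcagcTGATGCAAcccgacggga
These windows lie at chr7:126625563-126625590 (plus strand), chr2:152344029-152344056 (plus), chr2:119351039-119351066 (minus), chr19:27216810-27216837 (minus), chr6:7693215-7693242 (minus), chr6:55037961-55037988 (minus), chr19:43524690-43524717 (plus) and chr4:129189896-129189923 (plus). The first 6 belong to genes that fell, and the last pair to Got1 and Yars, which did not pass the test. The strict form TTGCATCA, which is 1 of the spellings of TGATGNAA on the other strand, was in 0.895% of all promoters and in Aars, Chac1, Got1, Nupr1, Pycr1, Vldlr and Yars. It was thus in 3 of the 15 measured genes that fell and 2 of the 17 other measured genes. For neither form was the difference between genes that fell and the others tested. The endoplasmic reticulum stress element, spelled CCAAT and, after 9 further bases, CCACG, was in 0.119% of all promoters and in those of 0 members. The cyclic AMP response element TGACGTCA was in 1.79%, and among members in Ppp1r15a.

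The 250 bases before the start of 3 genes follow, for a pair of members that fell and were picked from those with a match, and for the member that rose most. Chac1 (chr2:119350992-119351241, plus strand) and Asns (chr6:7693210-7693459, minus strand) fell, and Stc2 (chr11:31370062-31370311, minus strand) rose. The motif is in capitals on whichever strand it lies, and Stc2 has no match, like most of the genes that fell.
Chac1: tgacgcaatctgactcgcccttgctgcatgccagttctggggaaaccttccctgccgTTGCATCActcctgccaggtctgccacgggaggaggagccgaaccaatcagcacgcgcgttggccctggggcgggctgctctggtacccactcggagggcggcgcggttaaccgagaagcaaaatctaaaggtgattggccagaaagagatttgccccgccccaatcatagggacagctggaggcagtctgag
Asns: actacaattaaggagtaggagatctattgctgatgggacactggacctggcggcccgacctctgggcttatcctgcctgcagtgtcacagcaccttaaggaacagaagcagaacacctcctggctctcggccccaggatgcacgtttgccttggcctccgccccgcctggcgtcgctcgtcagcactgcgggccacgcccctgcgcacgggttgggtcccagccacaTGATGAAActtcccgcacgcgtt
Stc2: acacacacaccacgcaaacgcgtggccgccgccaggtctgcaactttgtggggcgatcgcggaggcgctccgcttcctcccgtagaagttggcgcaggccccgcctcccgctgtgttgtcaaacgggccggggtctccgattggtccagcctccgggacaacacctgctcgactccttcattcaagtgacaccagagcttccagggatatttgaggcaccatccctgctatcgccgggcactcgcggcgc
Counted from the start, the match of Chac1 lies at bases -193 to -186 and that of Asns at bases -23 to -16. A match is a run of letters and not a measured binding site.

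Of the kinases at the head of the pathway, Perk and Gcn2 are members, and neither passed the test. Eif2ak3 (Perk) had log2 levels of 7.49, 7.61 and 7.50 in HA-Fbxl10 cells, against 7.45, 7.47 and 7.51 in control cells, and Eif2ak4 (Gcn2) had 7.0, 7.10 and 6.97, against 6.93, 6.85 and 7.14. The groups overlap for both, and the 95% intervals of the log2 differences were -0.09 to 0.20 for Eif2ak3 and -0.14 to 0.24 for Eif2ak4. Eif2ak1, the kinase for haem shortage, is in the list of further genes and rose by 0.28 (limma adjusted p = 0.0202), with 0.06 (adjusted p = 0.694) once the median change of neighbouring genes was removed. Eif2ak2, the kinase for double-stranded RNA, had a log2 difference of 0.07 (adjusted p = 0.554). Ppp1r15a, the stress-induced subunit of the eIF2 alpha phosphatase, had 5.87, 5.85 and 5.91, against 6.06, 5.96 and 5.95, with an interval of -0.25 to 0.03. Eif4ebp1, which holds back cap-dependent translation when mTORC1 is off, had 10.59, 10.66 and 10.59, against 10.60, 10.57 and 10.68, with an interval of -0.15 to 0.14. Sesn2 stood out in this group. It encodes a leucine-binding brake on mTORC1 and had 6.61, 6.47 and 6.49 in HA-Fbxl10 cells, against 7.27, 7.20 and 7.27 in control cells. Its groups lay far apart relative to their spread, and it fell by 0.72 ± 0.07 (SE, limma adjusted p = 0.000105), which is 1.65-fold.

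Atf4 mRNA itself was slightly lower. It had log2 levels of 9.40, 9.47 and 9.41 in HA-Fbxl10 cells, against 9.65, 9.69 and 9.69 in control cells, and fell by 0.25 ± 0.06 (SE, limma adjusted p = 0.0166), or 1.19-fold. The call was lost without HA-Fbxl10 replicate 1 (adjusted p = 0.0632) or 3 (0.0566) and when array medians were subtracted (0.0991). Atf5, a relative of Atf4 that is also controlled at translation, had 8.34, 8.27 and 8.40, against 8.57, 8.82 and 8.68, and fell by 0.35 ± 0.08. Ddit3, which encodes the pro-apoptotic factor CHOP, had 6.55, 6.69 and 6.53 in HA-Fbxl10 cells, against 7.14, 7.15 and 7.12 in control cells. It fell 1.46-fold (adjusted p = 0.000468), with 3 near-equal control values. Nupr1, a small stress-induced chromatin protein gene, had 7.34, 7.34 and 7.06, against 8.12, 7.90 and 8.11, and fell 1.74-fold (adjusted p = 0.000469). Trib3, a pseudokinase that is induced by ATF4 and CHOP and feeds back on both, had 7.36, 7.41 and 7.21 in HA-Fbxl10 cells, against 8.30, 8.31 and 8.50 in control cells. At 2.06-fold (adjusted p = 4.2e-05) its fall was the largest of the 6 regulators. The exception was Cebpg, a C/EBP partner of ATF4, with 8.92, 8.91 and 9.04, against 8.72, 8.84 and 8.92; its groups overlap and its interval was -0.04 to 0.30.

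The 3 stress targets outside amino acid synthesis held the largest fall and the largest rise of all members. Vldlr, a lipoprotein receptor gene, had 4.45, 4.24 and 4.48 in HA-Fbxl10 cells, against 5.93, 6.11 and 6.47 in control cells. It fell by 1.78 ± 0.13 (SE, limma adjusted p = 2.53e-05), and its HA-Fbxl10 levels lay below the median of all genes, where RMA compresses differences. Chac1, which breaks down glutathione, had 7.97, 8.07 and 8.23, against 8.54, 8.48 and 8.62, and fell 1.37-fold (adjusted p = 0.00347). Stc2, a secreted glycoprotein that restrains IGF release from its binding proteins, went the other way, with 7.97, 8.18 and 8.30 in HA-Fbxl10 cells, against 6.91, 6.77 and 7.03 in control cells. It rose by 1.25 ± 0.10 (SE, adjusted p = 4.2e-05), or 2.38-fold, and every HA-Fbxl10 array lay above every control array.

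**Figure D2:**
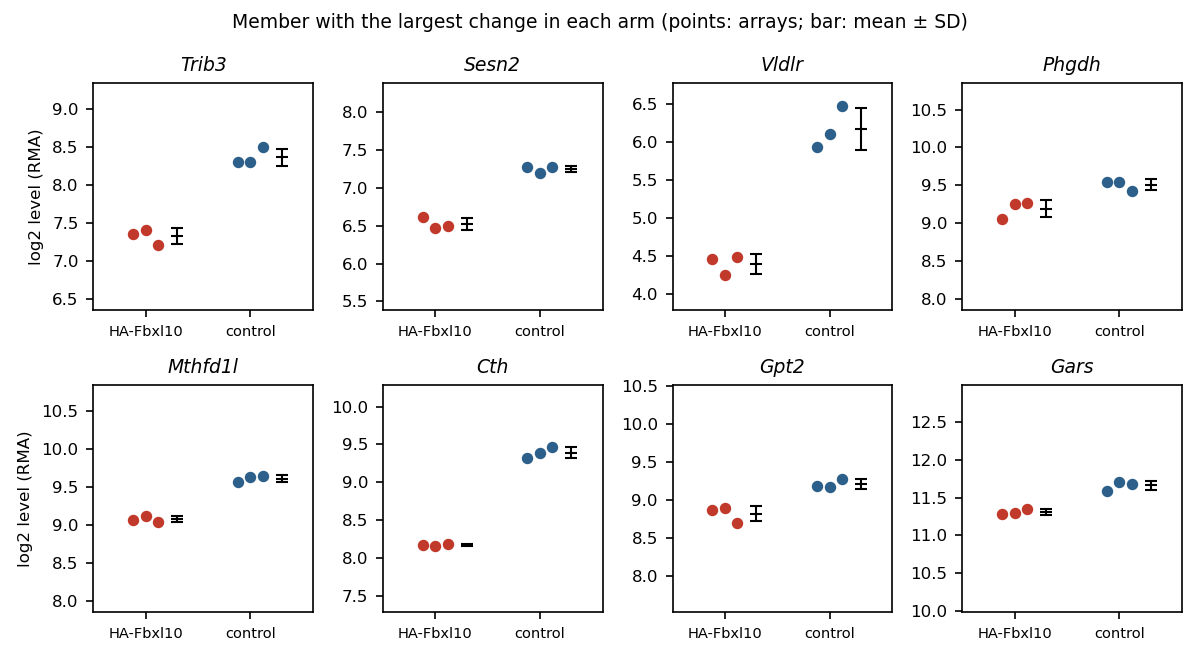
Log2 level (y axis, RMA values, a span of 3 log2 units in each panel) of the gene with the largest change in each role, with the 3 HA-Fbxl10 arrays left of the 3 control arrays. Points are arrays and bars the mean ± SD. All 8 genes are lower in HA-Fbxl10 cells without overlap, with log2 fold changes from -0.32 (Phgdh) to -1.78 (Vldlr).

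In serine synthesis the first enzyme fell and the next steps did not pass the test. Phgdh, which draws 3-phosphoglycerate from glycolysis into serine, had 9.06, 9.25 and 9.27 in HA-Fbxl10 cells, against 9.55, 9.55 and 9.43 in control cells, and fell 1.24-fold (limma adjusted p = 0.0166). Without HA-Fbxl10 replicate 1 or control replicate 1 or 2 the call was lost (adjusted p = 0.0544 to 0.0627), as it was when every probe set was tested by its own identifier (0.0549). Psat1, the aminotransferase of the next step, had 11.68, 11.70 and 11.70, against 11.87, 11.76 and 11.85, which do not overlap but gave an adjusted p of 0.173. Psph, the final phosphatase, had 8.25, 8.39 and 8.33, against 8.42, 8.35 and 8.48, which overlap.

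Of the folate enzymes among the members, the mitochondrial ones fell and the cytosolic ones did not pass the test, before neighbouring genes were taken into account. Serine hydroxymethyltransferase takes a carbon from serine, in mitochondria as Shmt2 and in the cytosol as Shmt1, and Mthfd2 and Mthfd1l carry it to formate in mitochondria while Mthfd1 uses formate in the cytosol. Shmt2 had 10.15, 10.22 and 10.07 in HA-Fbxl10 cells, against 10.55, 10.49 and 10.59 in control cells, and fell by 0.40 ± 0.07 (SE, limma adjusted p = 0.00268). Mthfd2 had 9.69, 9.77 and 9.72, against 10.04, 10.14 and 10.09, and fell by 0.37 ± 0.06 (adjusted p = 0.00291). Mthfd1l had 9.07, 9.12 and 9.04, against 9.56, 9.63 and 9.64, and fell by 0.54 ± 0.06 (adjusted p = 0.000374). These 3 genes lay outside the control range on every HA-Fbxl10 array. Shmt1 (8.61, 8.72 and 8.72, against 8.87, 8.78 and 8.92) had an interval of -0.33 to -0.02 and an adjusted p of 0.106, and Mthfd1 (10.02, 9.97 and 10.02, against 9.94, 9.82 and 9.96) had an interval of -0.05 to 0.25. Once the median change of neighbouring genes was removed, the call of Mthfd2 was lost (0.002) and Shmt2 fell by 0.23 (limma adjusted p = 0.0455). Mthfd1l still fell by 0.54 (adjusted p = 0.000499). Mitochondrial folate genes outside the members, given next, moved in both directions. The difference between the compartments was not tested.

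Beyond the members, 17 of 20 further folate, glycine and methionine genes were measured, of which 3 fell and 2 rose. These counts stand beside 17.8% lower and 19.2% higher among all genes above the median level. Aldh1l2, which oxidises formyl-folate in mitochondria, had 8.58, 8.73 and 8.54 in HA-Fbxl10 cells, against 9.80, 9.93 and 9.96 in control cells, and fell by 1.28 ± 0.08 (SE, limma adjusted p = 9.2e-06). Mthfd2l, a close relative of Mthfd2 in the same organelle, had 8.56, 8.52 and 8.44, against 7.85, 7.75 and 7.88, and rose by 0.68 ± 0.07 (adjusted p = 0.000158). The paralogs Mthfd2 and Mthfd2l thus moved in opposite directions, each without overlap, although the fall of Mthfd2 was no larger than that of its chromosomal neighbours.

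Cysteine synthesis held the member with the smallest adjusted p. Cth, the lyase that releases cysteine from cystathionine, had 8.17, 8.16 and 8.18 in HA-Fbxl10 cells, against 9.32, 9.39 and 9.47 in control cells, and fell by 1.22 ± 0.06 (SE, limma adjusted p = 4.13e-06), or 2.33-fold. Cbs, which makes the cystathionine, had 5.61, 5.27 and 5.36, against 5.53, 5.69 and 5.33, with overlapping groups near the median of all genes and an interval of -0.36 to 0.15. Mat2b, the regulatory partner of the methionine adenosyltransferase, is in the list of further genes and fell by 0.35, or by 0.20 (limma adjusted p = 0.0492) once neighbouring genes' median was removed.

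Asns, the asparagine synthetase, had 11.66, 11.69 and 11.74 in HA-Fbxl10 cells, against 11.94, 12.01 and 11.97 in control cells, and fell 1.21-fold (limma adjusted p = 0.0105), a call that was lost when array medians were subtracted (-0.222, adjusted p = 0.0508). Gpt2, the mitochondrial alanine aminotransferase, had 8.86, 8.89 and 8.70, against 9.18, 9.17 and 9.28, and fell 1.31-fold (adjusted p = 0.00435). Aldh18a1, which starts proline synthesis, and Got1, the cytosolic aspartate aminotransferase, did not overlap between groups but had adjusted p of 0.0759 and 0.269, with log2 differences of -0.19 and -0.12. The remaining members here rose. Odc1, the first enzyme of polyamine synthesis, had 10.37, 10.41 and 10.49 in HA-Fbxl10 cells, against 10.06, 10.16 and 10.10 in control cells (log2 fold change 0.32 ± 0.07, SE, adjusted p = 0.00722), and its second probe set gave 0.34. Bcat1, the cytosolic branched-chain aminotransferase, had 10.40, 10.49 and 10.43, against 10.15, 10.16 and 10.24. Its rise of 0.26 (adjusted p = 0.0178) was lost when HA-Fbxl10 replicate 2 or 3 or control replicate 1 or 2 was left out (adjusted p = 0.0511 to 0.0668). Of 15 measured genes of neighbouring proline, polyamine and aminotransferase steps, 2 fell and 1 rose. The background was 17.8% lower and 19.2% higher among genes above the median level. Bckdha, a subunit of the branched-chain ketoacid dehydrogenase, fell by 0.74 and Sat1, a polyamine acetyltransferase, rose by 0.21 on the log2 scale. The call of Sat1 was lost once the median change of neighbouring genes was removed (0.12, adjusted p = 0.279).

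The tRNA synthetases, which charge tRNAs with amino acids, were all slightly lower by point estimate, but Gars alone passed the test. Gars (glycine) had 11.28, 11.29 and 11.35 in HA-Fbxl10 cells, against 11.59, 11.71 and 11.68 in control cells, and fell by 0.35 ± 0.06 (SE, limma adjusted p = 0.00393). The log2 differences of Cars, Yars, Nars, Eprs, Wars and Sars ran from -0.20 to -0.04, with 95% intervals between -0.38 and 0.09 and adjusted p of 0.107 to 0.706. That of Sars was 0.012 when array medians were subtracted, so its direction is not settled. The median of the 7 genes stood at -0.15, -0.12 and -0.13 on the HA-Fbxl10 arrays and at -0.07, 0.05 and 0.02 on the control arrays, relative to the control mean. Of 11 other cytosolic synthetases measured, 3 fell and 1 rose, with Lars (leucine) lower by 0.36 and Farsa (a phenylalanine subunit) higher by 0.22. Of 16 mitochondrial synthetases 1 fell, Tars2 (threonine) by 0.80 ± 0.07, and 1 rose, Mars2 (methionine) by 0.26, a call that was lost once neighbouring genes' median was removed (0.19, adjusted p = 0.158). Among genes above the median level, 17.8% were called lower and 19.2% higher.

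**Figure D3:**
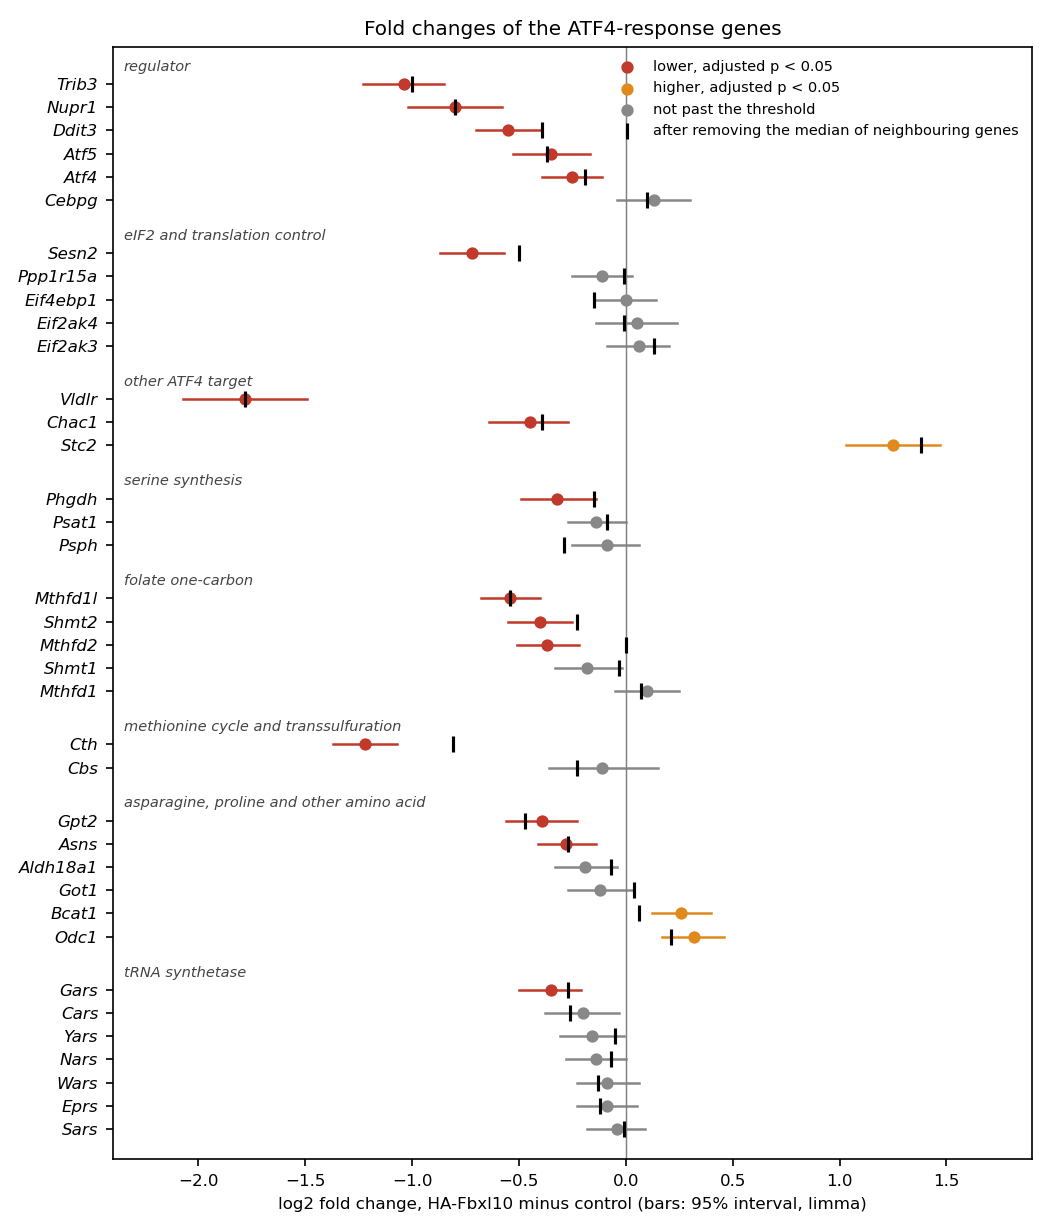
Log2 fold change of each measured gene, HA-Fbxl10 minus control (x axis), by role (y axis). Points and bars are the limma estimate and its 95% interval (red lower, orange higher, grey not past an adjusted p of 0.05), and black ticks are the estimate after the median change of neighbouring genes was removed. The ticks of Mthfd2, Bcat1 and Phgdh lie far closer to 0 than their points, while those of Trib3, Nupr1 and Mthfd1l stay beside them.

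Whole chromosomal neighbourhoods shifted on these arrays, so each member was also set against the genes beside it. The median change of the 31 expressed genes around it was -0.41 for Cth, -0.37 for Mthfd2, -0.22 for Sesn2 and -0.17 for Phgdh, and 0.20 for Bcat1. After that median was removed, 14 members were lower and 1, Stc2, was higher (37.8% and 2.70% of 37, beside 8.21% and 7.16% of all genes). The share of all genes includes those under the median level, which were not adjusted. A share among genes above that level, where 36 of the 37 members lie, was not counted for this setting. Cth then fell by 0.81 (limma adjusted p = 5.14e-05), Sesn2 fell by 0.50 (0.000993) and Shmt2 fell by 0.23 (0.0455). The calls of Mthfd2 (0.002, adjusted p = 1), Phgdh (-0.15, 0.268), Atf4 (-0.19, 0.0674), Odc1 (0.21, 0.0593) and Bcat1 (0.06, 0.637) were lost, and Psph was called lower (-0.29, adjusted p = 0.0200). Vldlr was not adjusted because its mean level lay under the median of genes. Ddit3 and Shmt2 lie 0.226 Mb apart on chromosome 10 and share such a neighbourhood, with a median of -0.16.

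Genes of the same response outside the members also leaned lower. Of 18 further ATF4 or CHOP targets 17 were measured, 6 fell and 1 rose, and their median log2 fold change was -0.20. The background was 10.6% lower and 10.5% higher among all genes. It was 17.8% lower and 19.2% higher among genes above the median level, where 16 of the 17 lie. This list, too, was chosen with earlier results of these data known, and its lean was not tested. Fgf21, a stress-induced hormone gene, had 5.26, 5.06 and 5.02 in HA-Fbxl10 cells, against 5.63, 6.0 and 5.60 in control cells, and fell by 0.63 ± 0.11 (SE, limma adjusted p = 0.00379) at levels near the median of all genes. Nfil3, a bZIP repressor gene, rose by 0.24, and its value was 0.03 once neighbours were removed. Among 13 measured genes of eIF2, eIF2B and the other kinases, 2 fell and 3 rose, beside that same background. Eif2s3x, which encodes eIF2 gamma, fell by 0.46 ± 0.07. Impact, an inhibitor of Gcn2 activation, had 10.91, 10.95 and 10.86, against 10.55, 10.51 and 10.48, and rose by 0.39 ± 0.06 (adjusted p = 0.00179).

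The endoplasmic reticulum chaperones and the other branches of the unfolded protein response had a median in the opposite direction. Of 20 genes 7 rose and 3 fell, with a median log2 fold change of 0.13, against 3 risers and 16 fallers among 37 members with a median of -0.18. The risers were all chaperones, folding enzymes or their partners, led by Sdf2l1 (9.18, 9.28 and 9.10 in HA-Fbxl10 cells, against 8.56, 8.61 and 8.50 in control cells, a log2 rise of 0.63 ± 0.07, SE, limma adjusted p = 0.000321), and Hspa5, the main luminal Hsp70, rose by 0.25. The 3 that fell were Xbp1, the transcription factor of the Ire1 branch (-0.52 ± 0.07), Ern1, which encodes Ire1 (-0.27), and Edem1 (-0.39), which helps to clear misfolded protein. Once neighbours were removed, the calls of Ern1 (-0.09, adjusted p = 0.432) and Edem1 (-0.15, adjusted p = 0.238) were lost. Among the risers, those of Pdia3 (0.13, adjusted p = 0.208) and Pdia6 (0.21, adjusted p = 0.0683) were lost too. Calr (0.28, adjusted p = 0.0155) and Creld2 (0.22, adjusted p = 0.0465) were then called higher. Of 16 amino acid transporters 5 fell and 4 rose, with a median of 0.03. For this list and the chaperone list the background was 17.8% lower and 19.2% higher among genes above the median level. The cystine importer Slc7a11 had 6.76, 6.91 and 6.93, against 7.59, 7.73 and 7.94, and fell by 0.89 (-0.57, adjusted p = 0.0036, once neighbours were removed), while the arginine carrier Slc7a1 rose by 0.42 (0.17, adjusted p = 0.200, once neighbours were removed). The difference between these lists and the members was not tested.

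**Figure D4:**
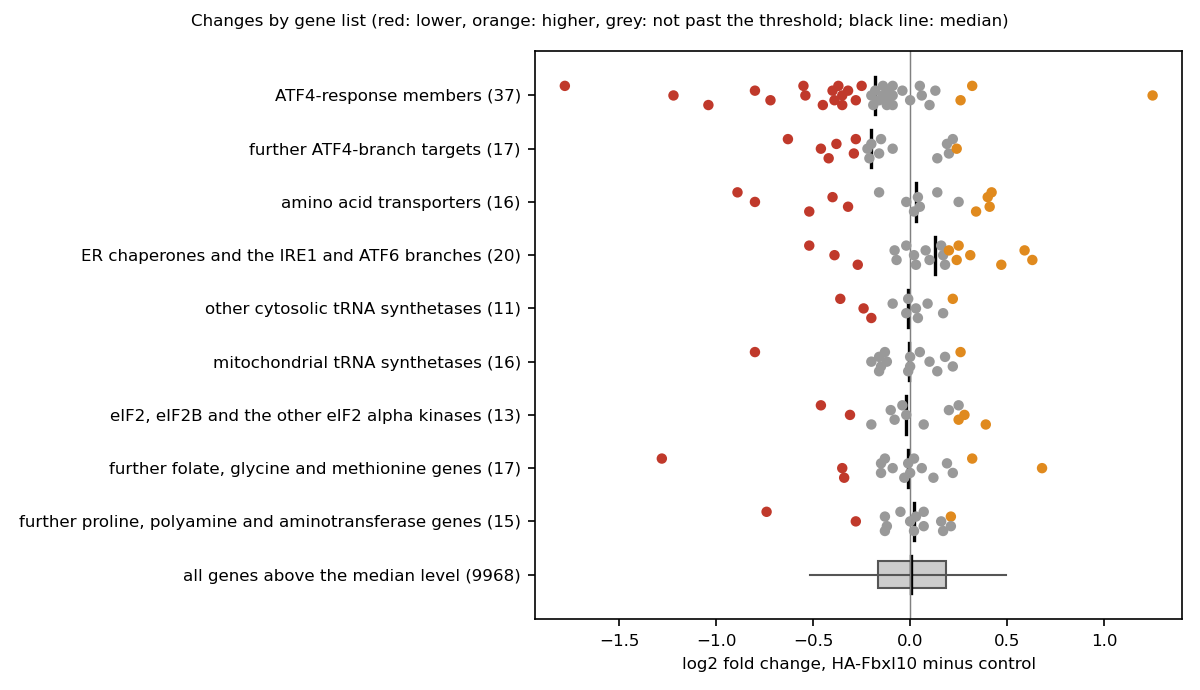
Log2 fold change, HA-Fbxl10 minus control (x axis), of every measured gene in 9 lists (y axis, number of genes in brackets), and at the bottom the spread of the 9968 genes above the median level (box, quartiles, and line, the 5th to 95th percentile). Red genes were lower and orange genes higher at an adjusted p of 0.05, grey ones did not pass, and the black line is the median. The medians of the ATF4-response members (-0.18) and of the further targets (-0.20) lie left of 0 and that of the chaperone list (0.13) lies right of it.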

How the data were processed

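RNA of 3 HA-Fbxl10 and 3 control samples was hybridised to Affymetrix arrays, with 300 ng of RNA per array per the labels' protocols. The deposited log2 expression values come from the authors' RMA run, per the processing notes of the submitters. This step corrects background, makes the arrays' distributions alike and summarises probes, so a general shift would go unseen and differences at low levels shrink. Neither its version nor the genome build is given in the sources used here, and no scan dates or detection calls were used. Of 35556 probe sets, 21789 name 1 gene, 1621 several and 12146 none. Only the first kind was used, with symbols updated to the RefSeq table of GRCm38.p6 through the Entrez identifier (21698) or an accession (3), and 88 kept. For 1001 genes with several probe sets the brightest was taken.

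All 19936 genes were fitted with limma 3.58.1 in R 4.3.3 (lmFit, eBayes, two-sided, Benjamini-Hochberg over all genes, threshold 0.05), without a further normalisation or filter. Each fold change is HA-Fbxl10 minus control. On data simulated for this comparison over 19936 genes, 73.1% of changes of 0.5, 97% of 1 and 100% of 2 log2 units were recovered among genes above the median level. That simulation gave 184 calls, against 4208 in the data, and held no change under 0.5. It thus gives no recovery rate for smaller changes, which most members had. The labels do not say whether the replicate numbers pair the samples, and the main fit did not use them. Same-numbered samples' deviations had correlations of 0.137, -0.313 and -0.04, beside -0.251 to 0.263 for differently numbered samples. With 3 samples per group these values do not settle whether the numbers mark pairs. Other settings tried were quantile normalisation, array medians, a filter on the dimmest 30%, averaged or separate probe sets, variance trends, array weights, the replicate block, leaving out arrays, a threshold of 0.01 and removal of a running median of 31 expressed genes along the chromosome, the gene itself included. Members and lists were chosen with earlier results of these data known. The text names every measured member and, from each other list, the largest riser and faller past the threshold. Mat2b, Hspa5, Eif2ak1, Eif2ak2, Ern1, Edem1, Pdia3, Pdia6, Calr and Creld2, and the marker genes, Pecam1 and Cdh5 included, were named after their values were seen.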

Additional observations from a re-analysis of the deposited data

How the results depend on the processing

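Of the 19 calls among the members, 12 held in all 17 alternatives: those of Ddit3, Nupr1, Trib3, Sesn2, Chac1, Vldlr, Stc2, Shmt2, Mthfd1l, Cth, Gpt2 and Gars. Removal of neighbouring genes' median left the values of Vldlr unchanged, so that setting was no check of its call. Without single arrays 14 to 16 members were lower and 2 or 3 higher, with 3208 to 3853 genes called in all and a median of -0.194 to -0.164 over the members. With the replicate number as a block, which the labels do not describe as a pairing, 15 members were lower, 2 higher and 3397 genes called. Atf4 (adjusted p = 0.0503) and Bcat1 (0.0505) were then lost. At an adjusted p of 0.01, 2536 genes were called and 12 members were lower. The members' median was -0.217 after quantile normalisation, -0.122 with array medians subtracted and -0.146 with neighbouring genes' median removed, where 1 member was higher. That last setting also ended the calls of Mthfd2 (0.002), Phgdh, Atf4, Odc1 and Bcat1, and turned the sign of the uncalled Got1 (0.043) and Eif2ak4 (-0.009). Without single arrays Eif2ak4 ran from -0.013 (without control replicate 2) to 0.129. Eif4ebp1, with -0.002 over all arrays, ran from -0.025 to 0.03 without single arrays and was 0.052 with array medians subtracted, and Sars was 0.012 with medians subtracted. The causes were not tested. With a variance trend 22 members were lower. The number of arrays and low signal, as for Vldlr, limit the precision.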
